A study of Mus musculus with 12 samples.

Results

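The genes described here are 32 genes of endoplasmic reticulum (ER) stress and the unfolded protein response. They were taken by symbol from a table of read counts for 25861 genes, and all 32 had enough counts to be among the 17025 genes tested. The list holds 5 sensors and transcription factors, 15 chaperones and folding enzymes, 6 genes of ER-associated degradation and 6 genes of the ATF4 type, which answer to the transcription factor ATF4. RNA sequencing was done on organoids (small pieces of tissue grown in culture) isolated from primary mammary tumours of MMTV-Neu mice. MMTV-Neu mice carry the Neu (Erbb2) oncogene under the promoter of mouse mammary tumour virus, which is active mainly in mammary epithelium. All 3 groups were of this origin. All were infected with lentivirus at a multiplicity of infection of 20, selected with 3 µg/ml puromycin for 3 days, and kept for 5 days in collagen I, with 2.5 nM FGF2 in the medium. The control group (shControl, genotype labelled WT) carried a non-targeting short hairpin RNA, and the groups sh1Cldn7 and sh2Cldn7 carried 1 of 2 hairpins against Cldn7, here called hairpin 1 and hairpin 2. Cldn7 encodes claudin 7, a tight junction protein, and the study asked about its role in invasion and metastasis. Each group had 4 libraries with replicate numbers 1 to 4. Whether the 4 came from different mice or cultures is not stated, so the p-values below rest on a spread between libraries that may be technical.

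Proteins that enter the secretory route are folded in the ER, and unfolded protein there is sensed by 3 membrane proteins. IRE1 (gene Ern1) splices the messenger RNA of Xbp1, ATF6 (Atf6) is cut to release a transcription factor, and PERK (Eif2ak3) phosphorylates a translation initiation factor, which raises the translation of Atf4. XBP1 and ATF6 act mainly on chaperones and on ER-associated degradation, the route that returns misfolded protein to the cytosol. ATF4 acts mainly on genes of amino acid supply and on regulators of survival and translation, and it also serves stresses that arise outside the ER. The chaperone group is also known to be high in secretory tissue, of which the mammary gland is one. Splicing of Xbp1 and translation of Atf4 are not visible in counts per gene.

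Promoter sequence was examined by role. RefSeq promoter windows of GRCm38.p6 ran from 250 bases before to 50 bases after the start of the gene. They were matched by NCBI Gene number for 28 of the 32 genes and not for Atf6, Hyou1, Manf and Derl1. They were searched on both strands for 3 motifs. The ER stress response element was spelled CCAAT, 9 bases of any kind, CCACG, and the second type of this element was spelled ATTGG, 1 base of any kind, CCACG. The element bound by ATF4 with C/EBP proteins was spelled TGATGNAA. The first element was found in 7 of 13 chaperone windows, in 1 of 5 windows of degradation genes (Syvn1) and in 0 of 6 windows of ATF4-type genes, against 0.119% of all 32851 windows. The second element was found in Herpud1 and Dnajb11, against 0.037% of all windows. TGATGNAA was found in 3 of 6 ATF4-type windows (Trib3, Asns and Chac1) and also in Herpud1 and Txndc5, against 3.97% of all windows. None of the 4 matched windows of sensors and transcription factors held any of the 3. The stretches below are printed in the direction of each gene with the matches in capitals. Herpud1 is shown because the largest difference of the 32 genes was found there, and because its window holds motifs of both kinds. Hspa5, Hsp90b1 and Pdia6 stand for the chaperones, and Asns and Chac1 for the ATF4-type genes. The stretches are Herpud1 chr8:94386305-94386399 (plus strand), Hspa5 chr2:34772013-34772055 (plus), Hsp90b1 chr10:86705521-86705668 (minus), Pdia6 chr12:17266479-17266521 (plus), Asns chr6:7693213-7693244 (minus) and Chac1 chr2:119351037-119351068 (plus).
Herpud1: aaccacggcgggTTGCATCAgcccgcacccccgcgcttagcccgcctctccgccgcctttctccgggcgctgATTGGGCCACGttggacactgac
Hspa5: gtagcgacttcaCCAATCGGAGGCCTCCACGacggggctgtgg
Hsp90b1: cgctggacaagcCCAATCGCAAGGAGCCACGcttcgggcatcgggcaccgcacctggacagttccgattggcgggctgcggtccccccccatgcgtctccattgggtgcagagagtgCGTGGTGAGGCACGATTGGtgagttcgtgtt
Pdia6: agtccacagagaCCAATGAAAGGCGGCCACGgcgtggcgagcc
Asns: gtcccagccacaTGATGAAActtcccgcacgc
Chac1: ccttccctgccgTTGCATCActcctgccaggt
In Herpud1 the ATF4-type motif begins 112 bases and the second ER stress element 52 bases before the start. In Hsp90b1 the ER stress element occurs in both directions, 212 and 107 bases before the start. A match is a description of the letters and not evidence that a factor was bound in these organoids.

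The libraries of replicates 1 and 2 held 34988358 to 44645514 counts and those of replicates 3 and 4 held 68581024 to 76329473, a division found in every group. Levels are given as CPM, counts scaled to the library total with edgeR's TMM factors. Cldn7 stood at 101 to 186 CPM in the control, 29.0 to 44.2 with hairpin 1 and 25.4 to 34.7 with hairpin 2. Each hairpin library was thus below every control. The ranges of the hairpins overlapped, but within every replicate number Cldn7 was lower with hairpin 2 than with hairpin 1. Its log2 fold changes against the control were -2.07 with hairpin 1 and -2.30 with hairpin 2. Libraries with the same replicate number resembled each other across groups, and differences were therefore tested with the replicate number in the model. Markers of epithelium summed to 7802 to 10794 CPM in all 12 libraries, with 0 of 11 genes at 0. Leukocyte and macrophage markers summed to 263 to 426 CPM in replicates 1 and 2, with 0 of 15 genes at 0, and to 149.5 to 294 CPM in replicates 3 and 4, with 1 to 7 of 15 at 0. T and NK cell markers summed to 1.33 to 6.96 CPM in the former and 0.149 to 0.496 in the latter, where 4 to 8 of 9 were at 0. Endothelial markers summed to 4.0 to 15.5 CPM and basal epithelial markers to 1241 to 4161 CPM. In such bulk samples, fewer cells of a type and less RNA per cell cannot be told apart.

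**Figure D1:**
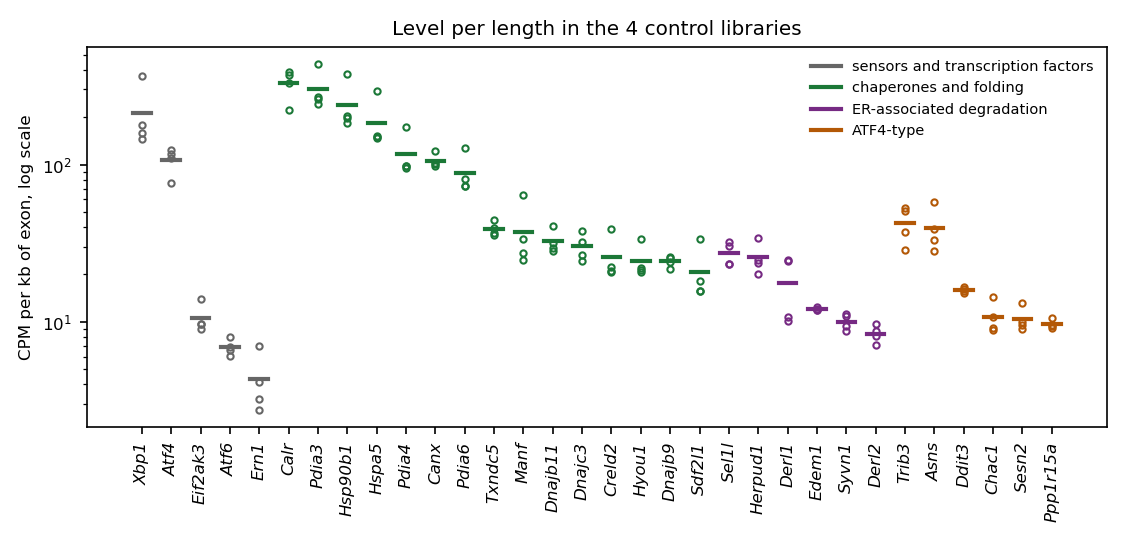
Level per length (CPM per kb of exon, log scale) of the 32 genes in the control. Open circles are the 4 control libraries, bars are their means, and colours give the role; Calr, at a mean of 328, is the highest and Ern1, at 4.30, the lowest.

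Per length of exon, in the control, most of the highest of the 32 genes were folding genes, and the sensors Atf6 and Ern1 were the lowest. The length was that of all annotated exons of a gene merged, so the order of genes also depends on the annotation. Calr, the lectin chaperone calreticulin, stood at 328 ± 75.9 CPM per kb (SD, n = 4), Pdia3, a disulphide isomerase that works with it, at 302 ± 88.8, and Hsp90b1, the ER form of HSP90, at 241 ± 91.9. They were followed by Xbp1 at 212 ± 102 and Hspa5, the main ER chaperone BiP, at 184 ± 71.2. The spreads of these 5 genes overlap, so their order is not fixed by these libraries. The 15 folding genes ranged from 20.8 to 328 CPM per kb with a median of 38.9, the 6 degradation genes from 8.42 to 27.3, and the 6 ATF4-type genes from 9.65 to 42.3 with a median of 13.4. The 3 sensors were low: Eif2ak3 stood at 10.6 ± 2.23, Atf6 at 6.92 ± 0.818 and Ern1 at 4.30 ± 1.92 CPM per kb. Atf4 itself was at 107 ± 21.0 CPM per kb, above all 6 genes of the ATF4 type. The ER stress regulator Ddit3 (CHOP) was at 16.0 ± 0.595 CPM per kb and varied least of the ATF4-type genes. The lowest count of any of the 32 genes in any library was 492 (Chac1), so none was limited by low counts.

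The first question was whether these genes changed when Cldn7 was lowered. For both hairpins against the control, 0 of 32 passed the threshold, an adjusted p of 0.05 in edgeR's quasi-likelihood test adjusted by Benjamini-Hochberg over every gene tested, whereas 1.79% of all genes did. With hairpin 1 alone, 0 of 32 passed, against 0.728% of all genes. With hairpin 2 alone, 2 of 32 passed, Herpud1 and Edem1, against 5.76% of all genes; both were lower, against 2.93% of all genes lower. Between the hairpins, 1 of 32 passed, Herpud1, which was lower with hairpin 2; here 3.44% of all genes passed and 1.87% were lower. These counts are near or below the background, except that 2 of 32 lower with hairpin 2 is about 1 gene more than 2.93% gives. At an unadjusted p under 0.05, edgeR gave 3 of the 32 genes for both hairpins, 3 for hairpin 1, 4 for hairpin 2 and 5 between the hairpins, against 17.2%, 12.8%, 22.6% and 20.1% of all genes, in each case above the share among the 32. DESeq2, with the same model, called 2 of 32 for both hairpins (Herpud1 and Edem1; 6.82% of all genes) and 0 for hairpin 1 (3.57%). It called 3 for hairpin 2 (Herpud1, Edem1 and Trib3; 10.9%) and 4 between the hairpins (Herpud1, Xbp1, Sdf2l1 and Trib3; 8.43%). Without the replicate number in the model, edgeR called none of the 32 in any comparison, and over all genes only Cldn7 against the control and Nfe2l2 between the hairpins. The fold changes of all 32 genes were small: over both hairpins they ran from -0.22 to 0.11 on the log2 scale, and their 95% intervals stayed between -0.37 and 0.26. The comparisons of the hairpins with the control share the control libraries and are not independent of each other.

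**Figure D2:**
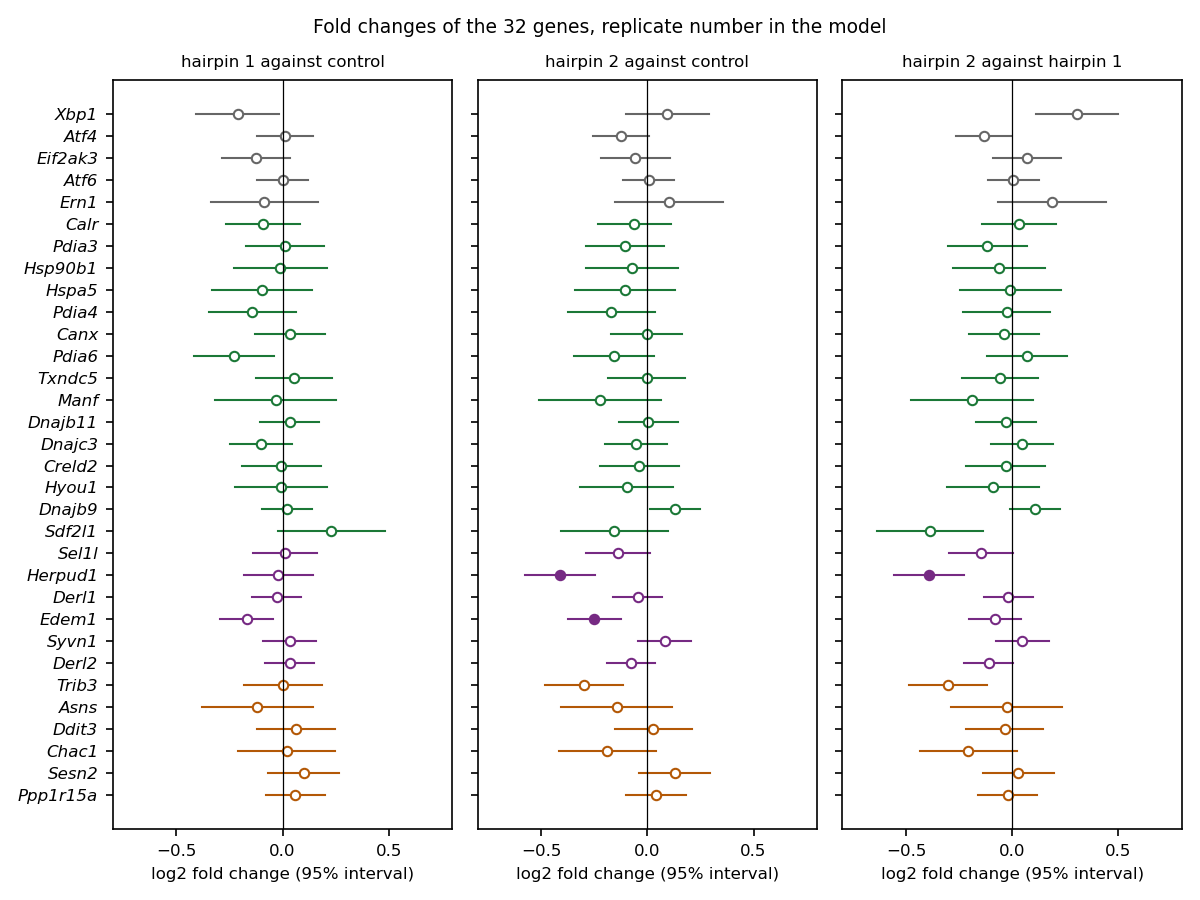
Log2 fold changes of the 32 genes (points, with 95% intervals from edgeR with the replicate number in the model) for hairpin 1 and hairpin 2 against the control and for hairpin 2 against hairpin 1, coloured by role as in the plot of levels. Filled points passed the threshold: Herpud1 (-0.41) and Edem1 (-0.25) with hairpin 2, and Herpud1 (-0.39) between the hairpins.

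Among the 6 degradation genes, 2 fell with hairpin 2 and 4 did not pass. Herpud1 (chr8:94386438-94395377, plus strand) encodes HERP, an ER membrane protein that helps assemble the degradation complex and is itself known as a strongly induced target of the stress response. Its level was 55.6, 47.1, 79.9 and 58.1 CPM in control replicates 1 to 4, 53.2, 51.7, 67.3 and 62.7 with hairpin 1, and 39.8, 40.0, 50.6 and 48.5 with hairpin 2. Each hairpin 2 library was below the control of its replicate number, although the ranges of the 2 groups overlapped. All 4 hairpin 2 libraries were below all 4 hairpin 1 libraries, as they were for 1 of the 32 genes and, in either direction, for 2.4% of all genes. Herpud1 fell by 24.9% with hairpin 2 (log2 fold change -0.41, SE 0.07, edgeR adjusted p = 0.0137), with differences of -0.48, -0.24, -0.66 and -0.26 in replicates 1 to 4. Against hairpin 1 the log2 difference was -0.39 (SE 0.07, edgeR adjusted p = 0.0209), and it ranged only from -0.42 to -0.37 over the 4 replicate numbers. Hairpin 1 against the control gave -0.02 (SE 0.07, edgeR adjusted p = 0.945) and both hairpins gave -0.22 (SE 0.06, edgeR adjusted p = 0.116). Cldn7 itself overlapped in range between the 2 hairpins but was lower with hairpin 2 in every replicate number. Nfe2l2 did not overlap, at 148 to 173 CPM with hairpin 1 and 74.2 to 85.0 with hairpin 2. Against the control it gave 0.57 with hairpin 1 and -0.49 with hairpin 2 (edgeR adjusted p = 0.00592 and 0.00254). The part of either gene in the Herpud1 difference was not tested. The hairpin 2 call was lost without control replicate 1 (edgeR adjusted p = 0.0541). The call between the hairpins was lost without hairpin 1 replicate 1, 2, 3 or 4 or hairpin 2 replicate 1 (edgeR adjusted p = 0.075, 0.0819, 0.0546, 0.0896 and 0.0777). With only the control and hairpin 2 libraries in the fit, the adjusted p was 0.106 at an unchanged fold change.

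Edem1 (chr6:108828641-108859356, plus strand) encodes a mannosidase-like protein that picks out misfolded glycoproteins for degradation. Its level was 80.2, 76.9, 77.7 and 76.5 CPM in the control, 67.2, 63.5, 74.4 and 72.0 with hairpin 1, and 69.2, 58.6, 66.7 and 67.6 with hairpin 2. All 8 hairpin libraries were below all 4 controls. Edem1 was the only one of the 32 genes whose levels did not overlap with the control, for each hairpin, against 1.19% of all genes for hairpin 1 and 2.1% for hairpin 2. It fell with hairpin 2 (log2 fold change -0.25, SE 0.06, edgeR adjusted p = 0.0298). With hairpin 1 the value was -0.17 (SE 0.06, edgeR adjusted p = 0.228), and over both hairpins it was -0.21 (SE 0.05, edgeR adjusted p = 0.0598), neither past the threshold. The hairpins differed by -0.08 (SE 0.06, edgeR adjusted p = 0.457). The hairpin 2 call was lost in 8 of 12 fits that left out 1 library (control replicate 1, 2 or 3, hairpin 1 replicate 2, or any hairpin 2 replicate), with adjusted p up to 0.101. With only the control and hairpin 2 libraries in the fit it was 0.144.

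The other 4 degradation genes did not pass. Sel1l, the scaffold of the degradation complex, ranged from 191 to 279 CPM over the 12 libraries. Syvn1, its ubiquitin ligase, ranged from 42.4 to 57.6 CPM, and Derl2, a derlin of the membrane channel, from 57.1 to 77.6 CPM. Fibroblast markers differed from the control with both hairpins. Their summed level was 2150.4, 2755, 849.6 and 6314 CPM in control replicates 1 to 4, 2176, 3170.0, 1003 and 7955 with hairpin 1, and 3268, 3054, 2643 and 13945 with hairpin 2. It was higher than in the control in 4 of 4 replicate numbers with each hairpin, and 0 of 12 genes were at 0 in any library. Hairpin 2 was above hairpin 1 in replicates 1, 3 and 4 and below it in replicate 2. Of this list, Pdgfrb (0.67) and Dcn (1.02) passed with hairpin 2 (edgeR adjusted p = 0.0110 and 0.0113). Col1a1 (0.63) did not (edgeR adjusted p = 0.268). Epcam, an epithelial marker, fell by 0.34 on the log2 scale with hairpin 2 (SE 0.06, edgeR adjusted p = 0.0151). Krt8, Krt18 and Erbb2 of the same marker list did not pass, at -0.04, -0.09 and -0.04 (edgeR adjusted p = 0.770, 0.488 and 0.839). The summed epithelial markers were higher with hairpin 2 than in the control in replicates 1 and 2 and lower in replicates 3 and 4. The part of fibroblast or epithelial content in the lower Herpud1 and Edem1 was not tested.

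**Figure D3:**
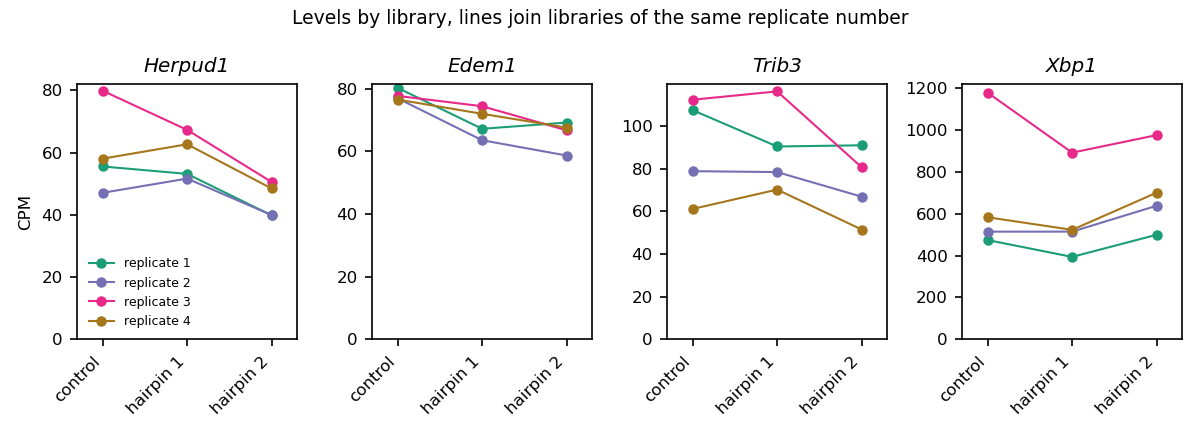
CPM of Herpud1, Edem1, Trib3 and Xbp1 in each library, on axes that start at 0, with lines that join libraries of the same replicate number across the control, hairpin 1 and hairpin 2. Herpud1 drops at hairpin 2 in every replicate number, Edem1 is below its control in all 8 hairpin libraries, and replicate 3 is the highest for Xbp1 in all groups.

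Derl1, the other derlin, followed the replicate number and not the hairpins. Its level was 81.4, 82.5, 33.9 and 35.6 CPM in the control, 75.2, 76.9, 33.9 and 38.3 with hairpin 1, and 75.4, 80.8, 32.4 and 36.2 with hairpin 2. Replicates 1 and 2 averaged 78.7 CPM and replicates 3 and 4 averaged 35.04 CPM, with no overlap in any group. The mitochondrial gene ATP6, chosen after its values were seen, split the same way, at 3866 to 5347 CPM in replicates 1 and 2 and 1.37 to 4.25 CPM in replicates 3 and 4. The libraries divide in the same way by total count, and their leukocyte markers, although overlapping in sum, had 0 genes at 0 in replicates 1 and 2 and at least 1 in replicates 3 and 4. The part of either in these values was not tested.

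Of the 5 sensors and transcription factors, none passed in any comparison by edgeR, and at an unadjusted p under 0.05 there were 0 over both hairpins, 1 with hairpin 1, 0 with hairpin 2 and 2 between the hairpins. Xbp1, which codes for the transcription factor activated by IRE1, was the most variable. Its level was 474, 515, 1179 and 583 CPM in the control, 394, 515, 892 and 523 with hairpin 1, and 499.7, 638, 976 and 701 with hairpin 2. It was higher with hairpin 2 than with hairpin 1 in 4 of 4 replicate numbers, by 0.30 on the log2 scale (SE 0.09, edgeR adjusted p = 0.0906; DESeq2 adjusted p = 0.0199), and it passed edgeR's threshold without control replicate 3 or hairpin 2 replicate 3 (edgeR adjusted p = 0.0442 and 0.0228). Against the control the values were -0.06 over both hairpins (SE 0.08, edgeR adjusted p = 0.745) and 0.09 with hairpin 2 (SE 0.09, edgeR adjusted p = 0.576), and the former turned positive without control replicate 3. Between the hairpins Xbp1 and Herpud1 thus had opposite signs, with all libraries in the fit only the latter past edgeR's threshold.

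Atf4 stood at 293, 258, 276 and 181 CPM in the control, 298, 256, 268 and 192 with hairpin 1, and 281, 246, 219 and 178 with hairpin 2. The groups overlapped, with log2 fold changes of -0.06 over both hairpins (SE 0.05, edgeR adjusted p = 0.623) and -0.12 with hairpin 2 (SE 0.06, edgeR adjusted p = 0.246). Eif2ak3, the gene of PERK, stood at 58.8, 58.0, 54.6 and 83.7 CPM in the control, 52.9, 50.1, 49.4 and 83.4 with hairpin 1, and 61.0, 50.1, 58.4 and 74.0 with hairpin 2. It was highest in replicate 4 of every group, and its fold change was -0.09 over both hairpins (SE 0.06, edgeR adjusted p = 0.499) and -0.06 with hairpin 2 (SE 0.07, edgeR adjusted p = 0.692). Ern1 ranged from 22.5 to 57.7 CPM and was also highest in replicate 4 of every group, and Atf6 ranged from 56.0 to 78.4 CPM.

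None of the 15 chaperones and folding enzymes passed in any comparison by edgeR, and at an unadjusted p under 0.05 there was 1 of 15 in each of the 4 comparisons. Hspa5 (chr2:34771970-34777547, plus strand), the gene of BiP, stood at 619.6, 629, 1232 and 639.7 CPM in the control, 590.3, 562, 1056 and 676 with hairpin 1, and 559, 629, 841 and 765 with hairpin 2. Replicate 3 was the highest in each group, and the groups overlapped. Its log2 fold change was -0.10 over both hairpins (SE 0.09, edgeR adjusted p = 0.618) and -0.11 with hairpin 2 (SE 0.11, edgeR adjusted p = 0.60). The 95% interval for hairpin 2 ran from -0.34 to 0.13, and the fold change turned positive (0.02) without hairpin 2 replicate 3. Hsp90b1 stood at 800.0, 741, 1524 and 815 CPM in the control, 825, 737, 1404 and 846 with hairpin 1, and 771, 774, 1073 and 929 with hairpin 2. Replicate 3 was again the highest in each group. The fold changes were -0.04 over both hairpins (SE 0.08, edgeR adjusted p = 0.852) and -0.07 with hairpin 2 (SE 0.10, edgeR adjusted p = 0.708), and each turned positive without control replicate 3 or hairpin 2 replicate 3.

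The disulphide isomerases Pdia6 and Pdia4 had the smallest p of the folding genes over both hairpins. Pdia6 stood at 303, 275, 474 and 272 CPM in the control, 248, 239.9, 375 and 259 with hairpin 1, and 258, 260.5, 340.1 and 304 with hairpin 2. It was below its control in 4 of 4 replicate numbers with hairpin 1 and in 3 of 4 with hairpin 2. The fold changes were -0.19 over both hairpins (SE 0.07, edgeR adjusted p = 0.21), -0.23 with hairpin 1 (SE 0.08, edgeR adjusted p = 0.297) and -0.16 with hairpin 2 (SE 0.08, edgeR adjusted p = 0.311). Pdia4 stood at 236, 227, 418 and 236 CPM in the control, 210.1, 216, 341 and 233 with hairpin 1, and 202, 225, 282 and 257 with hairpin 2. Here the values were -0.16 over both hairpins (SE 0.08, edgeR adjusted p = 0.349) and -0.17 with hairpin 2 (SE 0.09, edgeR adjusted p = 0.312). Sdf2l1, a partner of BiP, is given because DESeq2 called it, a choice made after its values were seen. It stood at 20.2, 17.3, 37.4 and 17.4 CPM in the control, 23.8, 24.5, 37.3 and 20.6 with hairpin 1, and 17.1, 21.4, 25.3 and 16.3 with hairpin 2. It was lower with hairpin 2 than with hairpin 1 in 4 of 4 replicate numbers, by -0.39 on the log2 scale (SE 0.11, edgeR adjusted p = 0.0949; DESeq2 adjusted p = 0.0266). Against the control it was at 0.04 over both hairpins (SE 0.10, edgeR adjusted p = 0.892) and at -0.16 with hairpin 2 (SE 0.11, edgeR adjusted p = 0.457).

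The remaining folding genes also overlapped between groups. The lectin chaperones Calr and Canx ranged from 634 to 1121 and from 455 to 573 CPM. The BiP co-chaperones Dnajb9, Dnajb11 and Dnajc3 ranged from 55.2 to 71.2, 90.9 to 136 and 114 to 194 CPM. Hyou1, a nucleotide exchange factor of BiP, ranged from 145 to 244 CPM. Of the 15 folding genes only Dnajb9 was higher with hairpin 2 than in the control in 4 of 4 replicate numbers, and it did not pass. Pdia3 ranged from 734 to 1362 CPM, Txndc5, another disulphide isomerase, from 149.8 to 224 CPM, and the secreted stress proteins Manf and Creld2 from 87.4 to 225 and from 26.9 to 53.1 CPM.

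None of the 6 ATF4-type genes passed in any comparison by edgeR, and at an unadjusted p under 0.05 there were 0 over both hairpins, 0 with hairpin 1, 1 with hairpin 2 and 1 between the hairpins. Trib3, a pseudokinase that restrains AKT and ATF4 signalling, stood at 107, 78.8, 112 and 61.1 CPM in the control, 90.3, 78.3, 116 and 70.1 with hairpin 1, and 90.9, 66.8, 80.6 and 51.4 with hairpin 2. It was below its control in 4 of 4 replicate numbers with hairpin 2, although the ranges overlapped. Its fold change with hairpin 2 was -0.30 (SE 0.08, edgeR adjusted p = 0.0637; DESeq2 adjusted p = 0.0159), and hairpin 2 against hairpin 1 also gave -0.30 (SE 0.08, edgeR adjusted p = 0.0773; DESeq2 adjusted p = 0.0172). Over both hairpins it was -0.15 (SE 0.07, edgeR adjusted p = 0.321). It was below hairpin 1 in 3 of 4 replicate numbers, and in replicate 1 the hairpins were at nearly the same level. Asns, which makes asparagine, stood at 107, 90.7, 158 and 77.1 CPM in the control, 92.2, 86.0, 134 and 80.6 with hairpin 1, and 96.6, 93.2, 97.5 and 88.4 with hairpin 2. Its fold changes were -0.13 over both hairpins (SE 0.10, edgeR adjusted p = 0.554) and -0.14 with hairpin 2 (SE 0.12, edgeR adjusted p = 0.513), and the latter turned positive (0.01) without hairpin 2 replicate 3.

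Chac1, which degrades glutathione, stood at 17.6, 14.5, 23.5 and 15.0 CPM in the control, 14.6, 15.4, 23.3 and 18.0 with hairpin 1, and 15.1, 11.9, 18.1 and 16.4 with hairpin 2. Its fold changes were -0.08 over both hairpins (SE 0.09, edgeR adjusted p = 0.682) and -0.19 with hairpin 2 (SE 0.10, edgeR adjusted p = 0.317). Ddit3, the pro-apoptotic factor CHOP, was nearly level in the control and ranged from 24.3 to 33.3 CPM over all libraries. It stood at 26.2, 27.9, 26.9 and 28.5 CPM in the control, 24.3, 28.7, 28.5 and 33.3 with hairpin 1, and 29.8, 27.9, 24.8 and 29.3 with hairpin 2. Its fold changes were 0.05 over both hairpins (SE 0.07, edgeR adjusted p = 0.795) and 0.03 with hairpin 2 (SE 0.08, edgeR adjusted p = 0.875), with a 95% interval for both hairpins from -0.11 to 0.20. Sesn2, a stress-induced inhibitor of mTORC1, stood at 34.8, 33.1, 31.4 and 46.0 CPM in the control, 35.6, 35.4, 33.7 and 51.4 with hairpin 1, and 36.6, 30.1, 37.9 and 56.0 with hairpin 2. It was highest in replicate 4 of every group, with fold changes of 0.11 over both hairpins (SE 0.07, edgeR adjusted p = 0.419) and 0.13 with hairpin 2 (SE 0.08, edgeR adjusted p = 0.354). Ppp1r15a, the GADD34 subunit that reverses the PERK signal, ranged from 26.7 to 32.3 CPM.

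Set beside each other, chaperones and ATF4-type genes gave medians near 0 against the control. The median log2 fold change of the 15 chaperones was -0.05 over both hairpins, -0.01 with hairpin 1 and -0.07 with hairpin 2. That of the 6 ATF4-type genes was -0.02, 0.04 and -0.06, and over all genes tested the medians lay within 0.01 of 0. The replicate numbers differed in sign. With hairpin 2, the median difference of the chaperones was -0.15, 0.03, -0.42 and 0.17 in replicates 1 to 4, with 12, 5, 14 and 1 of 15 genes below their control. That of the ATF4-type genes was -0.08, -0.07, -0.25 and 0.13, with 4, 3, 4 and 1 of 6 below. With hairpin 1, the chaperone medians were -0.07, -0.02, -0.12 and 0.13 and the ATF4-type medians -0.16, 0.02, 0.03 and 0.21. In replicate 3 most chaperones were therefore below the control with hairpin 2, and in replicate 4 nearly all were above it. For hairpin 2 the spread of the 4 chaperone medians (SD 0.25, n = 4) exceeded their mean (-0.09).

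**Figure D4:**
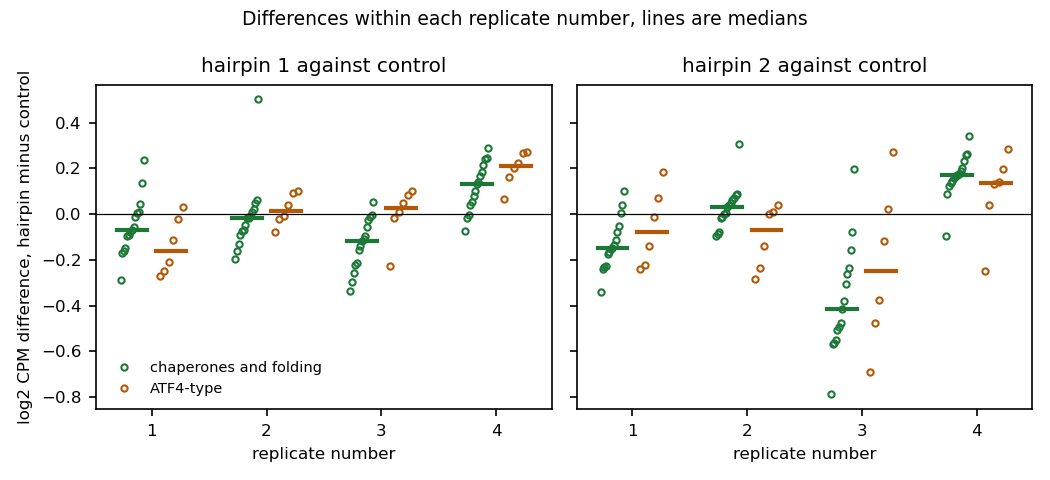
Log2 CPM of each hairpin library minus the control of the same replicate number, for the 15 chaperones and folding enzymes and the 6 ATF4-type genes; each point is a gene and lines are medians. With hairpin 2 the chaperone median is -0.42 in replicate 3 and 0.17 in replicate 4.

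The chaperones stood high in replicate 3. In the control, replicate 3 was the highest of the 4 libraries for 14 of the 15 chaperones, and this was so for 11 of 15 with hairpin 1 and 10 of 15 with hairpin 2. Over all genes tested, replicate 3 was the highest library for 31.8%, 30.1% and 25.2% of genes in these groups. The ratio of replicate 3 to the mean of the other 3 libraries had a median of 1.67 over the chaperones in the control, 1.52 with hairpin 1 and 1.24 with hairpin 2, whereas over all genes it was 0.942, 0.952 and 0.960. The excess was thus present in every group, greatest in the control and smallest with hairpin 2. Manf, Sdf2l1, Hspa5 and Hsp90b1 had such ratios of 2.23, 2.04, 1.96 and 1.94 in the control and of 1.33, 1.38, 1.29 and 1.30 with hairpin 2. Xbp1 went with the chaperones, at 2.25, 1.87 and 1.59 in the 3 groups. Dnajb9 did not, at 0.983, 0.939 and 1.04. With 1 library per group in this replicate number, there is no test of the order of the groups.

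The ATF4-type genes divided in replicate 3. Asns (1.72 in the control), Chac1 (1.50) and Trib3 (1.36) had ratios above 1 there. These 3 are the ATF4-type genes whose windows held TGATGNAA, an overlap seen after the values were known. Ddit3 (0.976), Ppp1r15a (0.979) and Sesn2 (0.827) were below 1. The division narrowed with hairpin 2, where Asns, Chac1 and Trib3 were at 1.05, 1.25 and 1.16 and Ddit3, Ppp1r15a and Sesn2 at 0.854, 0.964 and 0.926. Trib3 was only slightly higher in control replicate 3 (112 CPM) than in replicate 1 (107). With hairpin 2 it was lower in replicate 3 (80.6) than in replicate 1 (90.9). Of other genes with TGATGNAA, Txndc5 was at 1.20, 1.02 and 1.02 in the 3 groups and Herpud1 at 1.49, 1.21 and 1.18. Among the degradation genes, Herpud1 was at 1.49 in the control and Derl1, which divided by replicate number, at 0.509. Genes of milk and secretion, chosen after their values were seen, did not all behave alike: Trf, Csn3 and Lalba were highest in replicate 3 of every group, and the casein gene Csn1s1 was lowest there. Trf, transferrin, stood at 9018, 6076, 38257 and 5422 CPM in the control, 7886, 7040.1, 25993 and 5609 with hairpin 1, and 6661, 6894, 15326 and 5252 with hairpin 2. The casein gene Csn3 stood at 4517, 3409 and 1886 CPM in replicate 3 of the 3 groups, against 283 to 1343 CPM in the other 9 libraries. Csn1s1 stood at 138, 127, 27.6 and 71.1 CPM in the control, 359, 429.8, 97.9 and 172 with hairpin 1, and 171, 308, 73.2 and 195 with hairpin 2, and it rose over both hairpins by 1.342 on the log2 scale (SE 0.16, edgeR adjusted p = 0.00708). Markers of plasma and B cells, which are rich in ER, summed to 25.1, 26.7 and 17.1 CPM in replicate 3, of which Pou2af1 made up 21.4, 22.4 and 11.6, and 5 to 6 of 12 were at 0. In replicate 1 they summed to 27.4, 14.5 and 17.3 CPM, in replicate 2 to 16.1, 16.9 and 11.8 and in replicate 4 to 8.22, 8.78 and 8.99, so replicate 3 was the highest only with hairpin 1. Ighm and Igkc of this list were at 0 in replicates 3 and 4 of every group and above 0 in replicates 1 and 2. Derl1 and ATP6 divided by the same replicate numbers. Jchain and Mzb1 of this list were above 0 in every library. In replicate 3 of the 3 groups Jchain stood at 0.368, 0.0446 and 0.0128 CPM and Mzb1 at 0.107, 0.119 and 0.421 CPM. Fibroblast markers were at their lowest in replicate 3 of each group. The part of cell content or of secretory activity in the chaperone levels was not tested.

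**Figure D5:**
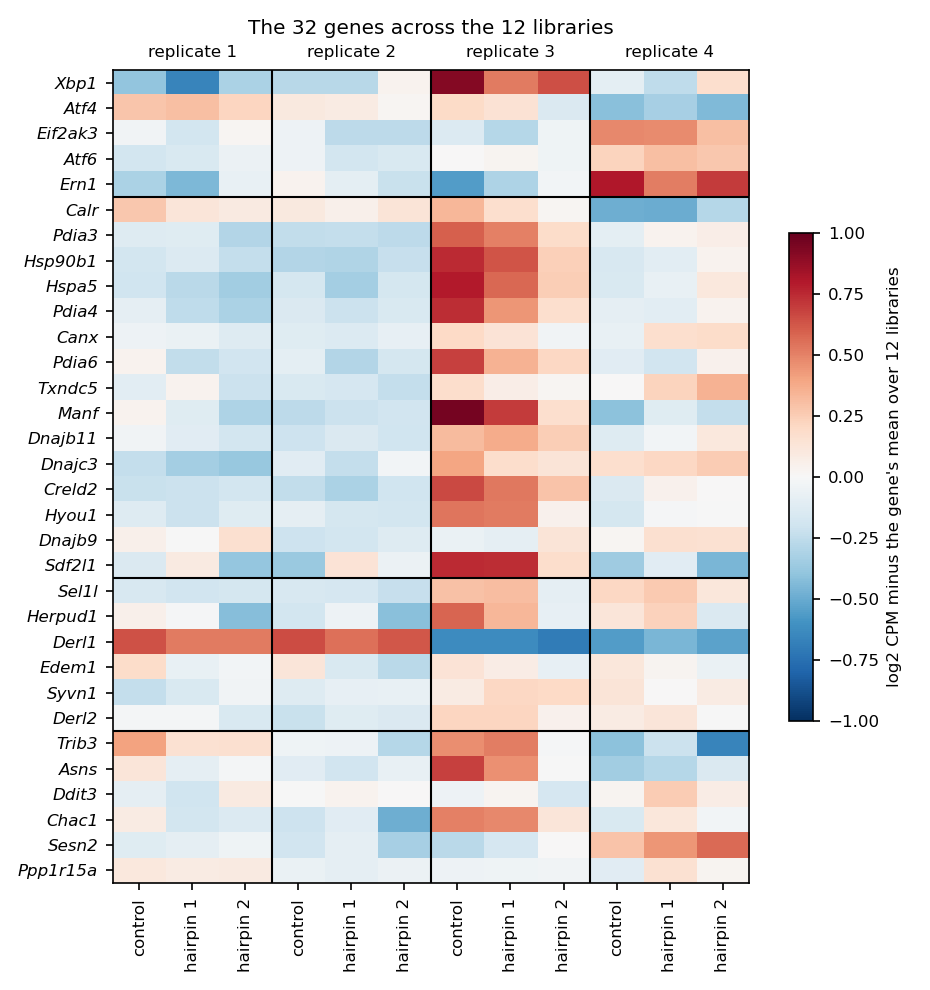
Log2 CPM of the 32 genes in the 12 libraries, each minus the gene's mean over the 12, with libraries ordered by replicate number and, within it, by control, hairpin 1 and hairpin 2; black lines separate roles and replicate numbers. Red is above and blue below the mean, on a scale from -1 to 1, and the block of red in replicate 3 covers most chaperones, Xbp1, Asns and Chac1, and fades from control to hairpin 2.

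Replicate 3 was therefore left out of a further fit, chosen after seeing the data. With replicates 1, 2 and 4 only, 1 of 32 passed with hairpin 2 (2.65% of all genes), Herpud1, at -0.32 (edgeR adjusted p = 0.041), while Edem1 kept its size at -0.26 but did not pass (edgeR adjusted p = 0.0763). Between the hairpins 2 of 32 passed (1.69% of all genes), Herpud1 at -0.39 (edgeR adjusted p = 0.0251) and Xbp1, higher with hairpin 2 (edgeR adjusted p = 0.041).

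Other genes of the same pathways were read from lists of 37 folding and translocation genes, 31 degradation and stress regulator genes and 48 ATF4-related genes, all of them tested. Among genes of these lists past the threshold the largest difference with hairpin 2 and over both hairpins lay in Stc2, which encodes stanniocalcin 2, a secreted glycoprotein known to be induced by ER stress through ATF4. It stood at 111, 54.7, 141 and 74.8 CPM in the control, 103, 58.7, 126 and 67.3 with hairpin 1, and 74.1, 39.1, 72.0 and 41.9 with hairpin 2. Each hairpin 2 library was below its control and below the hairpin 1 library of the same number. Stc2 fell by 0.72 on the log2 scale with hairpin 2 (SE 0.08, edgeR adjusted p = 0.00195), by 0.64 against hairpin 1 (SE 0.08, edgeR adjusted p = 0.00279) and by 0.40 over both hairpins (SE 0.06, edgeR adjusted p = 0.0183). The hairpin 2 call and the call between the hairpins held in all 12 fits that left out 1 library, with edgeR adjusted p up to 0.00919 and 0.0199, and were lost only in the fit without the replicate number. Slc7a11, the cystine transporter, fell by 0.71 against hairpin 1 (SE 0.16, edgeR adjusted p = 0.0383).

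Among the 48 ATF4-related genes, 1 rose and 2 fell over both hairpins, 1 rose and 0 fell with hairpin 1, 0 rose and 3 fell with hairpin 2, and 0 rose and 2 fell between the hairpins. Over all genes, 1.79%, 0.728%, 5.76% and 3.44% passed edgeR's threshold in these 4 comparisons in either direction. The share of all genes that passed and were lower was 2.93% with hairpin 2 and 1.87% between the hairpins. Jdp2, a repressor of the AP-1 family, rose by 0.31 over both hairpins (SE 0.06, edgeR adjusted p = 0.0353) and by 0.39 with hairpin 1 (SE 0.07, edgeR adjusted p = 0.0411). Nupr1, a stress-induced chromatin protein, fell by 0.25 over both hairpins (SE 0.05, edgeR adjusted p = 0.0491) and by 0.27 with hairpin 2 (SE 0.06, edgeR adjusted p = 0.0319). Ddit4, an inhibitor of mTORC1, fell by 0.32 with hairpin 2 (SE 0.07, edgeR adjusted p = 0.0286). Of the 31 degradation and regulator genes, 2 fell with hairpin 2: Mbtps1, the protease that cuts ATF6, by 0.20 (SE 0.05, edgeR adjusted p = 0.0355) and Traf2, an adaptor of IRE1, by 0.19 (SE 0.05, edgeR adjusted p = 0.0446). None of that list passed edgeR's threshold over both hairpins, with hairpin 1 or between the hairpins, where 8, 4 and 6 of 31 were under 0.05 before adjustment, and DESeq2 called 4, 1 and 2. None of the 37 folding and translocation genes passed edgeR's threshold in any of the 4 comparisons, where 8, 5, 7 and 7 were under 0.05 before adjustment, and DESeq2 called 2, 2, 2 and 0. Over all genes 17.2%, 12.8%, 22.6% and 20.1% were under 0.05 before adjustment in the 4 comparisons, and DESeq2 called 6.82%, 3.57%, 10.9% and 8.43%. The median fold change of those 37 was -0.07 over both hairpins and -0.11 with hairpin 2, with 29 and 34 of them below 0. Over all genes tested, 8615 of 17024 and 8370 of 17025 were below 0. Below their control with hairpin 2 were 29, 22, 35 and 13 of the 37 in replicates 1 to 4. With hairpin 2 their median was -0.36 in replicate 3 and 0.06 in replicate 4, the same change of sign as in the chaperones. When each of the 12 libraries was left out in turn, the call of Jdp2 was lost 9 times over both hairpins and 10 times with hairpin 1, and that of Nupr1 11 and 8 times. Those of Mbtps1 and Traf2 were lost 11 times each, that of Slc7a11 8 times, that of Ddit4 6 times and that of Stc2 over both hairpins 5 times.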

How the data were processed

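Each library's values are raw read counts per gene as deposited by the authors, not normalized, with NCBI Gene numbers and symbols; 1 of the 25861 rows had no symbol and was kept under its number. Per the submitters' processing notes, FastQC 0.74, Trimmomatic 0.39, DESeq2 1.34.0 and the build mm10 were used, and per the labels RNA was enriched on oligo-dT beads. The aligner, annotation and strand setting were not given in the sources used here. Reads shared with overlapping genes or near-identical copies may therefore have been assigned in ways the counts do not show. By GENCODE M21, 12 of the 32 genes share exon bases with another gene (up to 10.3%, Hsp90b1); Herpud1, Edem1 and Derl1 do not.

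Counts were analysed in R 4.3.3 with edgeR 4.0.16 (filterByExpr by group, TMM, quasi-likelihood test, 12 libraries, group plus replicate number) and, as an alternative, DESeq2 1.42.0. SEs come from the fold change and its F statistic. Log2 CPM had a prior count of 2. The replicate numbers of the titles pair the libraries: deviations from group means correlated at 0.855 to 0.916 for equal numbers and -0.807 to 0.727 for others. No 2 libraries of a group were near duplicates (chi-square per degree of freedom of at least 50.7). On simulated counts with known changes in hairpin 2 the test recovered their size but called few of the small ones. The simulated libraries were drawn independently given the replicate number. Whether the real ones are independent is not known, so the simulation does not vouch for their p-values. Lengths and loci are from GENCODE M21 on GRCm38 and promoters from RefSeq.

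The 32 genes and the lists were chosen with earlier results of these data known. Values per library are given for genes past the threshold, for the 2 of smallest p over both hairpins in each role, and for Hspa5, Hsp90b1, Xbp1, Atf4, Ddit3, Trib3, Asns and Chac1; Sdf2l1 was added later. Alternatives are under the closing section.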

Additional observations from a re-analysis of the deposited data

Results flagged for a closer look

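In groups of 4 libraries, a library was set apart when its gap to the nearest other library divided by the group's range, exceeded Dixon's 95% critical value. Of 96 combinations of gene and group, 17 were set apart, where chance gives about 1 in 20, and 12 of the 17 were a replicate 3 library that was high. In control replicate 3 these were Xbp1 (1179 CPM), Hspa5 (1232), Hsp90b1 (1524), Hyou1 (244), Sdf2l1 (37.4), Pdia3 (1362), Pdia4 (418), Pdia6 (474) and Creld2 (53.1 CPM). In hairpin 1 replicate 3 they were Hsp90b1 (1404 CPM), Pdia6 (375) and Manf (188 CPM). No gene was set apart in hairpin 2 replicate 3. The other 5 were Eif2ak3 in replicate 4 of the control (83.7 CPM) and of hairpin 1 (83.4), Ern1 in hairpin 2 replicate 4 (53.7), Sesn2 in hairpin 1 replicate 4 (51.4) and, as the lowest library, Dnajb9 in hairpin 2 replicate 2 (58.4 CPM). The genes are not independent of each other, since 1 library can set many apart.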

How the results depend on the processing

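In the fit without the replicate number as a block, 0 of the 32 genes passed with hairpin 2 and 0 between the hairpins, and Sdf2l1 over both hairpins turned to -0.0026; other calls lost there are named in the report. The fit without the block called 0.00587% of all genes in either comparison. With DESeq2, 2 passed over both hairpins (6.82% of all genes) and 4 between the hairpins (8.43%). With only the compared groups in the fit 0 passed with hairpin 2 (0.588% of all genes). Replicates 1 and 2 alone gave 0 with hairpin 2 (0.494% of all genes) and 0 between the hairpins (0.506%). Replicates 3 and 4 alone also gave 0 and 0 (1.98% and 0.254%). Replicates 1, 2 and 4, chosen after seeing the data, gave 1 and 2 (2.65% and 1.69%). Leaving out 1 library gave 0 to 3 with hairpin 2 and 0 to 3 between the hairpins. The fits that gave 0 called 2.1% of all genes with hairpin 2 and 0.97% to 1.43% between the hairpins. Those that gave 1 with hairpin 2 called 2.01% to 6.12% of all genes. The fit that gave 3 between the hairpins, without control replicate 3, called 3.95%. The medians of chaperones and ATF4-type genes moved by less than their spread between replicate numbers under every alternative, some across 0. No call of Cldn7 was lost. Signs of genes that had not passed turned as follows, and apart from fewer libraries the cause was not tested. With replicates 1, 2 and 4 only, Herpud1 with hairpin 1 became 0.064, Hspa5 and Asns with hairpin 2 0.038 and 0.032, Hsp90b1 0.051 over both hairpins and 0.068 with hairpin 2, and Xbp1 over both 0.040. With replicates 1 and 2 only, Herpud1 with hairpin 1 became 0.036, Sesn2 with hairpin 2 -0.036, Hsp90b1 0.011 over both and 0.000906 with hairpin 2, Xbp1 over both 0.027 and Sdf2l1 with hairpin 2 0.031. With replicates 3 and 4 only, Ddit3 with hairpin 2 became -0.018, Chac1 over both 0.016 and Sdf2l1 over both -0.092. Leaving out 1 library gave these ranges. Herpud1 with hairpin 1 ran from -0.073 to 0.069, Eif2ak3 with hairpin 2 from -0.11 to 0.0039, Hspa5 with hairpin 2 from -0.20 to 0.016 and Hsp90b1 from -0.096 to 0.052 over both and from -0.15 to 0.048 with hairpin 2. Xbp1 over both ran from -0.13 to 0.040, Ddit3 with hairpin 2 from -0.052 to 0.080, Asns with hairpin 2 from -0.23 to 0.012 and Sdf2l1 over both from -0.076 to 0.16. Depth was not limiting, since every gene had at least 492 counts in each library.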
